A study of Mus musculus with 2 samples.

Results

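ATP-sensitive potassium channels are built from a pore-forming inward rectifier subunit of the Kir6 family and a sulfonylurea receptor, and the 4 genes that encode these subunits in mouse lie as neighbouring pairs at separate loci. The first locus, on chromosome 6, holds Abcc9, which encodes the sulfonylurea receptor SUR2, and Kcnj8, which encodes the pore subunit Kir6.1. The second, on chromosome 7, holds Abcc8, which encodes the receptor SUR1, and Kcnj11, which encodes the pore subunit Kir6.2. TBX5 peaks were assigned to a locus when their summit lay between 142.48 and 142.72 Mb on chromosome 6 (Abcc9/Kcnj8, a window of 240 kb) or between 53.28 and 53.50 Mb on chromosome 7 (Abcc8/Kcnj11, 220 kb), on mouse build mm9. This gave 10 of the 8849 peaks in the list, 3 at Abcc9/Kcnj8 and 7 at Abcc8/Kcnj11. The loci were chosen with the peak list known, and the first was selected on the score of its strongest site, so the values below are descriptions and none was tested.

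The channels close when ATP is high and open when the cell runs short of energy or ADP rises, and so couple the membrane potential to metabolism. In ventricular muscle cells the channel of the surface membrane is mainly formed by Kir6.2 with a splice form of SUR2, so its subunits come from both loci. Kir6.1 with SUR2 is the channel of vascular smooth muscle, and Kir6.2 with SUR1 that of the insulin-secreting beta cell. TBX5 is a T-box transcription factor that patterns the developing heart and acts in its conduction system, and T-box factors bind sites that contain the letters AGGTGT.

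The chromatin came from cardiac ventricles of wild-type C57BL/6 mice at an age of 15 weeks, with no treatment, and was fixed with 2% formaldehyde. It was precipitated with an antibody against TBX5 or with rabbit IgG, and the design text gives 2 biological replicates for each. The data are 1 list of merged TBX5 peaks, and IgG values were not analysed here. No value of a single replicate stands behind a peak, so no spread between replicates is known, and the intervals given cover counting error only. Ventricle holds muscle, vessel and other cells, so a site bound in fewer cells and a site bound less in each cell cannot be told apart. A peak list has no expression values, so the tissue label was not checked against marker genes.

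The gene table at hand (GRCm38.p6) gave the order of the genes and no positions on mm9. In that order of protein-coding genes, Kcnj8 and Abcc9 lie next to each other between Ldhb, the heart form of lactate dehydrogenase, and Cmas. Kcnj11 and Abcc8 lie next to each other between Nomo1 and Ush1c. Whether a peak lies in an intron, a promoter or a neighbouring gene was not analysed here, and a peak in a window is not thereby a peak of the gene.

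The promoters of the first pair are printed because they are the start regions of the 2 genes in whose window the site at rank 4 of the list lies. They are RefSeq sequences on GRCm38.p6, the 250 bases before the annotated start, 5′ to 3′ on the gene's strand, and their coordinates cannot be set beside those of the peaks, which are on mm9. Kcnj8 lies on the minus strand at chr6:142571615-142571864 and Abcc9 on the minus strand at chr6:142702275-142702524. Capitals mark the T-box core AGGTGT or its reverse complement ACACCT.
Kcnj8: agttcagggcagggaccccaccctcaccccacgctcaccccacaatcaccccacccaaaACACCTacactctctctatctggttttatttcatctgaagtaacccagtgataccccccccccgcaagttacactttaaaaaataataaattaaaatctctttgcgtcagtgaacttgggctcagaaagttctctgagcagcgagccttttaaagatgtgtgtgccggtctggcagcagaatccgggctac
Abcc9: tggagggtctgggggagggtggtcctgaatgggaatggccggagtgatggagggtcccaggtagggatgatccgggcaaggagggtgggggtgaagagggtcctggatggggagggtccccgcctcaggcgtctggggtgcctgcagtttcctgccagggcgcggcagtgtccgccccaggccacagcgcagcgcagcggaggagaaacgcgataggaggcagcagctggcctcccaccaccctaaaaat

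The Kcnj8 promoter held the T-box core 1 time, on the strand opposite the gene, from 191 to 186 bases before the start. The letters were found on either strand in 11.8% of the 32851 promoters of the same length in the table. The Abcc9 promoter did not hold them. Neither promoter held the longer T-box letters GGTGTGA, which overlap the core and were found in 3.33% of promoters, or the GATA letters AGATAA, found in 9.99%. Base composition set the pair apart, with 49.2% G and C at Kcnj8 and 66.8% at Abcc9, against a median of 52.4% over all promoters. A match of 6 letters is a description of the sequence, and no peak was placed at either promoter.

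At Abcc9/Kcnj8, TBX5 signal was concentrated in 1 site. Fragment counts are given unscaled, while the fold scales them by 0.787 before setting them over the control level. The second of the 3 peaks lay at 142638194 to 142638606. Its summit had 178 TBX5 fragments (95% exact Poisson interval 153 to 206) over a local control level of 2.75. Its fold over the control, the authors' value as for all folds here, was 37.6, and the counting error of its TBX5 fragments alone put that fold between 32.3 and 43.5. Its −log10 q of 175.2 ranked 4 in the list and 1 among the 467 peaks on chromosome 6, where the next site reached 143.9. By fold it ranked 7 and by fragments 23.

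The rank by fragments leaves out the control level, which fold and −log10 q count as well as the TBX5 fragments. In the list, 24 peaks had at least as many TBX5 fragments as this site, itself included, at folds from 6.86 to 43.5 over control levels from 2.62 to 20. Only 2 of the 24, again with the site itself, reached its fold. The site was also narrow for its score. At 413 bp it lay below the median width of 511.5 bp among the 100 highest-scoring peaks, of which 19 were narrower still.

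The third peak of the Abcc9/Kcnj8 window, at 142639390 to 142639670, began 783 bp beyond the end of the strong site, and the summits were 1.16 kb apart. It held 40 fragments (28.6 to 54.5) where the control stood at 1.88, which makes a fold of 11.3, with a −log10 q of 23.3. The strong summit thus had 4.45 times as many TBX5 fragments as this neighbour. Among the 100 highest-scoring peaks, 18 had another summit within 2 kb, against 14.4% of the whole list. The first peak of the window, at 142616523 to 142616864, lay 21.8 kb before the strong summit, where 20 fragments (12.2 to 30.9) over a control of 2 gave a fold of 5.58. Its −log10 q was 5.81, below the list's median of 8.15, and its summit sat off centre, at 16.1% of a width of 342 bp.

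The window around these 3 peaks was otherwise empty. No peak was listed in the 136.6 kb between its start and the first summit or in the 80.5 kb between the last summit and its end. Just outside the window, a peak 9.65 kb before its start had a fold of 5.17 and 25 fragments, and a peak 79.1 kb beyond its end had a fold of 4.18 and 20 fragments. Both outer peaks were close in fold and fragments to the first peak inside and below the third. Seen from the strong summit, they lay 168.0 kb before and 160.7 kb after.

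**Figure D1:**
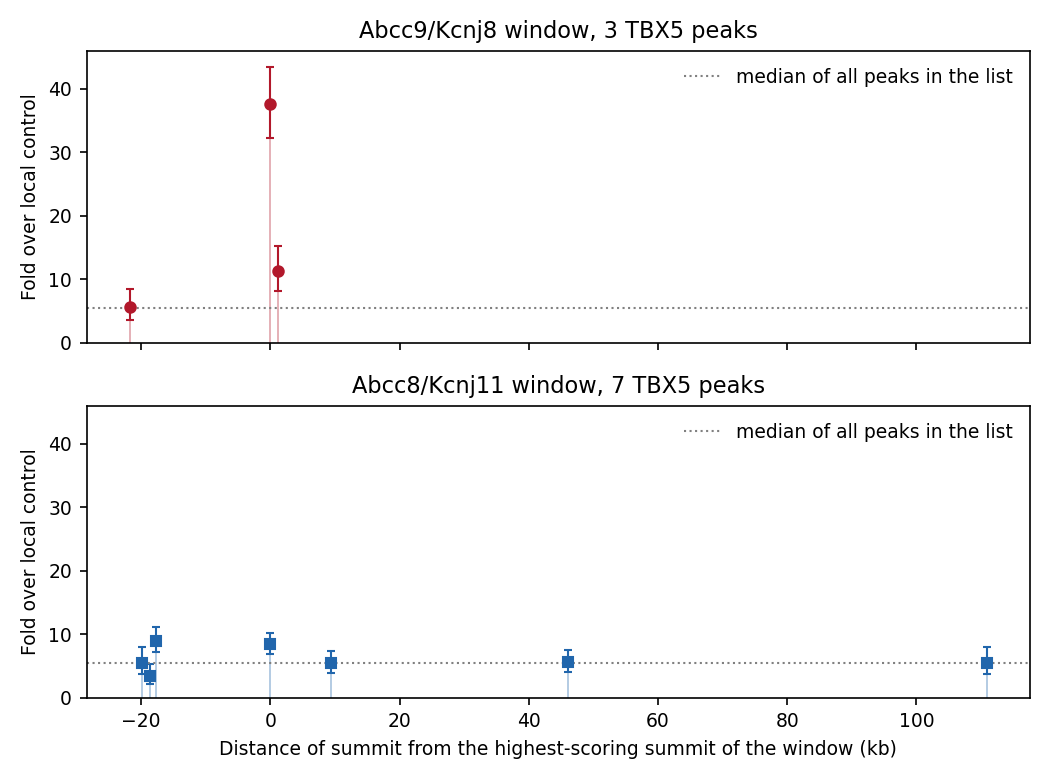
Fold of each TBX5 peak over the local control (vertical axis, from 0) against the distance of its summit from the highest-scoring summit of its window in kb, for Abcc9/Kcnj8 (3 peaks, circles) and Abcc8/Kcnj11 (7 peaks, squares). Bars are 95% intervals from the counting error of the TBX5 fragments, and the dotted line is the median of all peaks (5.52); at Abcc9/Kcnj8 1 peak reaches 37.6, while the Abcc8/Kcnj11 peaks run from 3.46 to 9.02 over a longer stretch.

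At Abcc8/Kcnj11, 7 peaks of modest fold were spread over 130.8 kb, against 22.9 kb between the outer summits at Abcc9/Kcnj8. The first 3 lay within 2.25 kb of each other. The third of them, at 53353796 to 53354324, was 529 bp wide and had 79 TBX5 fragments (62.5 to 98.5) over a control level of 6, which gave the highest fold of the locus, 9.02, and a −log10 q of 36.4. The peaks before it were small. The first, at 53351599 to 53351791, held 26 fragments (17.0 to 38.1), at a fold of 5.54. The second, at 53352848 to 53353006, held 18 fragments (10.7 to 28.4), at a fold of 3.46, the lowest of all 10 peaks, with its summit at 5.03% of its width.

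The fourth peak, at 53371340 to 53371792, lay 17.6 kb further on and had the highest −log10 q of the locus, 40.5, at rank 672 of the list and rank 39 of the 532 peaks on chromosome 7. Its 95 TBX5 fragments (76.9 to 116) were the most at this locus, but they stood over a control level of 8, so its fold was 8.41. The intervals of peaks 3 and 4, which cover the counting error of the TBX5 fragments only, overlapped both in fragments and in fold. Their order was not tested. Among the 124 peaks of the list within 5 fragments of the fourth peak, the median fold was 13.1 and the median control level 5. The fifth peak, at 53380772 to 53381079, followed after 9.43 kb with 40 fragments (28.6 to 54.5) where the control stood at 5, which makes a fold of 5.41.

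The sixth peak, at 53417074 to 53417886, stood out by its width. It was 813 bp wide, rank 22 of the list, while its summit held 42 TBX5 fragments (30.3 to 56.8). The control level there was 5 and the fold 5.67. Of the 22 widest peaks in the list, whose median was 115 fragments and a fold of 15.0, it had the fewest fragments and the lowest fold. Among the 1568 peaks whose fold was within 10% of its own the median width was 178 bp, and no other was as wide. Its summit lay at 69.6% of the width, and its nearest neighbours were 36.7 kb before and 64.8 kb after. The seventh peak, at 53482371 to 53482511, was 141 bp wide, and its 27 fragments (17.8 to 39.3) stood over a control of 3, a fold of 5.56.

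Just outside the Abcc8/Kcnj11 window, the nearest peak before it lay 101.1 kb from its start, with a fold of 2.66 over a control level of 9.12. The nearest peak after it lay 371.1 kb from its end, with a fold of 4.58. The 7 peaks were thus set apart from other listed peaks by 172.8 kb on one side and 388.6 kb on the other. Both distances are longer than the 130.8 kb between their outer summits.

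**Figure D2:**
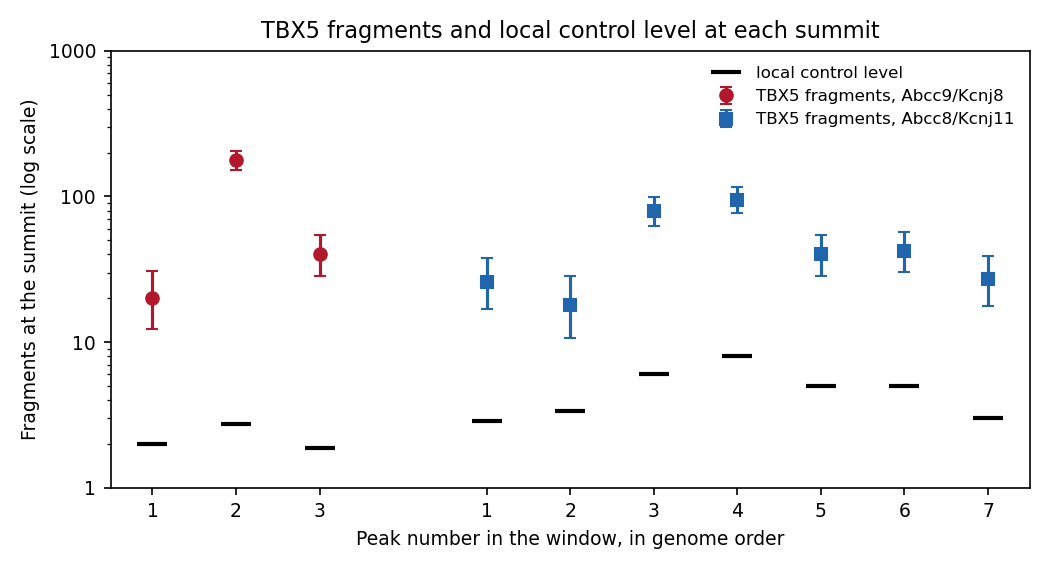
TBX5 fragments at the summit of each peak with exact 95% Poisson intervals (circles, Abcc9/Kcnj8; squares, Abcc8/Kcnj11) and the local control level (black bars), on a log axis, with peaks in genome order in each window. Fragment counts are unscaled and the fold uses them after scaling, so the distance from point to bar does not show the fold. The control levels run from 1.88 to 2.75 at Abcc9/Kcnj8 and from 2.88 to 8 at Abcc8/Kcnj11. Peak 3 of the first and peak 5 of the second window both hold 40 fragments.

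Set side by side, the Abcc9/Kcnj8 window had fewer peaks but the stronger site. Per 100 kb there were 1.25 peaks at Abcc9/Kcnj8 and 3.18 at Abcc8/Kcnj11. The strongest fold was 37.6 against 9.02, a ratio of 4.17, while the most fragments at a summit were 178 against 95, a ratio of 1.87. The Abcc9/Kcnj8 window was selected on the score of this site, which rests on its fragments and fold, so that these values are higher there follows from the choice. Counted over all summits, the order was the other way round, with 238 TBX5 fragments at Abcc9/Kcnj8 and 327 at Abcc8/Kcnj11. Without the strongest summit of each, 60 and 232 fragments were left. Scaled as in the fold, the sums over all summits were 187.2 and 257.2, over control levels that summed to 6.625 and 33.25. All these sums run over 3 and 7 summits, so they grow with the number of peaks.

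In the Abcc9/Kcnj8 window 2 of the 3 peaks had folds of at least 10, and in the Abcc8/Kcnj11 window 0 of the 7, against 13.7% of all peaks in the list. At a fold of at least 5 the counts were 3 of 3 and 6 of 7, against 58.7%. A −log10 q of at least 10 was found in 2 of 3 and 4 of 7, against 41.2%. The first locus was chosen for its score, so nothing is read from these counts. With 3 and 7 peaks a single peak moves each share by a large step.

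Control levels ran from 1.88 to 2.75 at Abcc9/Kcnj8 and from 2.88 to 8 at Abcc8/Kcnj11. All 3 Abcc9/Kcnj8 summits had a control level below the list's median of 3.5. At Abcc8/Kcnj11, 4 of the 7 summits had one above it, at 5 to 8, and the rest, at 2.88 to 3.38, were also below it. The first locus was chosen on the score of its strongest site. At a given number of fragments a lower control level raises that score, so nothing is read from this difference. Within the loci, the highest folds did not lie over the lowest control levels. At Abcc9/Kcnj8 the highest control level, 2.75, was that of the highest fold, 37.6. The Abcc8/Kcnj11 summits with the highest control levels, 6 and 8, had the highest folds there, 9.02 and 8.41. The first Abcc9/Kcnj8 peak, over a control of 2, had a fold of 5.58. At a given number of fragments, a higher fold means a lower control level by the formula of the fold. With 40 fragments, the third Abcc9/Kcnj8 peak had a fold of 11.3 over a control of 1.88. The fifth Abcc8/Kcnj11 peak, also with 40, had a fold of 5.41 over a control of 5. The 132 peaks of the list with 40 fragments had folds from 2.16 to 14.9, with a median of 5.41. The 2 strongest Abcc8/Kcnj11 summits held more TBX5 fragments than that Abcc9/Kcnj8 peak and still had lower folds. What sets the control level at these loci was not tested.

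Widths did not follow the same order. The Abcc9/Kcnj8 peaks ran from 281 to 413 bp and the Abcc8/Kcnj11 peaks from 141 to 813 bp, and all 3 of the first and 4 of the 7 of the second were wider than the list's median of 202 bp. The widest of each were the strong site in the first window and the sixth peak in the second. The second of these was the wider, with the lower fold.

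**Figure D3:**
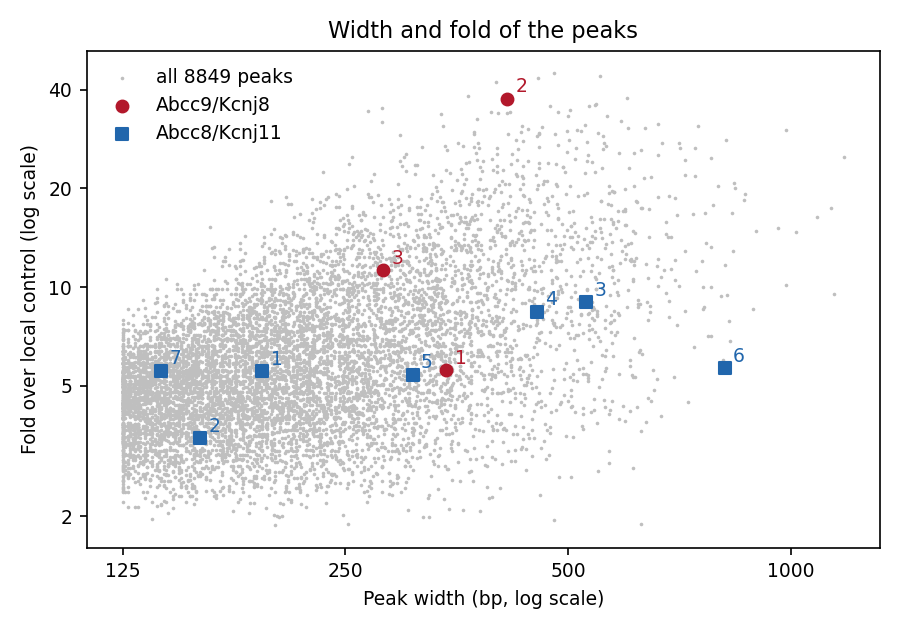
Peak width in bp against fold over the local control, both on log axes, for all 8849 peaks (grey) and for the peaks of Abcc9/Kcnj8 (circles) and Abcc8/Kcnj11 (squares), numbered in genome order. Abcc9/Kcnj8 peak 2 lies near the top of the cloud at 413 bp and a fold of 37.6, and Abcc8/Kcnj11 peak 6 at its right edge at 813 bp and a fold of 5.67.

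Peaks were stitched into groups when they lay up to 10 kb apart. By this rule 2 of the 3 Abcc9/Kcnj8 peaks and 5 of the 7 Abcc8/Kcnj11 peaks had a neighbour, against 33.2% of the list. They formed 1 group of 2 at Abcc9/Kcnj8, and a group of 3 and a group of 2 at Abcc8/Kcnj11.

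The number of peaks was set beside that of equally long windows laid end to end over chromosomes 1 to 19. Of 9872 windows of 240 kb, 61.0% held no peak and 11.9% held 3 or more, as the Abcc9/Kcnj8 window did. Of 10773 windows of 220 kb, 63.0% held no peak and 1.08% (116 windows) held 7 or more, as the Abcc8/Kcnj11 window did. The windows of the member genes were placed around genes and the others were not, so these shares only give the scale.

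The strongest fold was also set beside that of windows with the same number of peaks. In the 505 windows of 240 kb with 3 peaks the strongest fold had a median of 8.20. The 37.6 at Abcc9/Kcnj8 and the share of fragments at its summit are given beside such windows for scale only, since the choice of this window by its score puts both high. In the 46 windows of 220 kb with 7 peaks the median was 11.9, and in 32 of them the strongest fold was at or above the 9.02 at Abcc8/Kcnj11. The strongest summit held 74.8% of all TBX5 fragments counted at summits of the Abcc9/Kcnj8 window, where windows with as many peaks had a median of 46.2%. At Abcc8/Kcnj11 the summit with the most fragments held 29.1%, close to the median of 27.2% in windows with as many peaks.

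**Figure D4:**
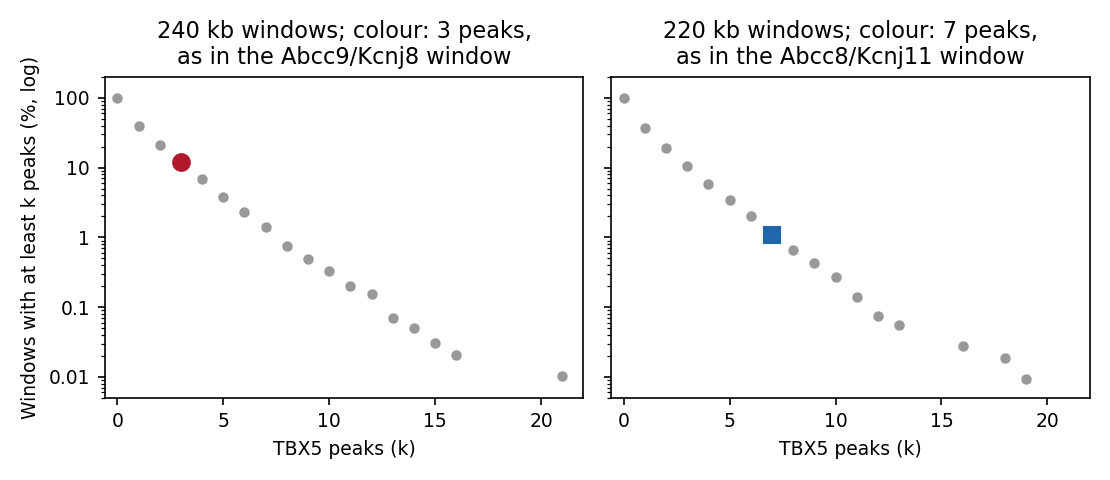
Percentage of windows on chromosomes 1 to 19 (log axis) that held at least the number of TBX5 peaks on the horizontal axis, for windows of 240 kb and of 220 kb; the coloured point marks the number of peaks found in the window of the named genes. At least 3 peaks were found in 11.9% of the first kind and at least 7 in 1.08% of the second.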

How the data were processed

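ChIP-seq of TBX5 and IgG was done in ventricles. The submitters' processing notes name build mm9, MACS2 (2.1.1.20160309.0) for peaks, Bowtie2 (2.2.6.2) and FastQC (0.10.0). How the caller was set, which control it used and how replicates were merged is not given in the sources used here. For each peak the authors deposited a fold enrichment (a ratio), a −log10 p, a −log10 q and a score. That score equals 10 times the −log10 q cut to a whole number at 8846 of 8849 peaks. The list ends at a q of 0.05.

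Fragments and control levels were computed here from fold and −log10 p. In MACS2 the fold is the scaled TBX5 pileup over the local control level, each raised by 1, and the p is the Poisson tail of that pileup. A scale of 0.787, with control levels from 1.18 upwards, solved every peak for a whole number of fragments (largest difference 0.00022 on −log10 p). Within a tolerance of 0.005, 240 peaks had a further solution, none of them among the 10 described. The recovery was tested on simulated data. These were simulated with the same formulas, so they check the solving step only and not the formulas themselves. Reads carry no molecular identifiers, so they may not be independent molecules.

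The members and lists were chosen with earlier results of these data known. Named were the 4 member genes, every peak with its summit in a window and the nearest peak beyond each edge. With 1 list, no test was made. Alternatives changed the threshold, window limits, counting, ranking and stitching. Other genes of the pathway and motifs in peaks need an mm9 genome and were not analysed here, nor were proteins. The window limits came with the choice of the loci and were not checked against an mm9 annotation. Promoters matched by symbol for 2 of the 4 genes (Kcnj8, Abcc9). Coordinates count from 1. Scripts ran in Python 3.11.15 with matplotlib 3.10.9, pandas 2.3.3, scipy 1.17.1 and numpy 2.4.6.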

Additional observations from a re-analysis of the deposited data

How the results depend on the processing

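Of 26 alternatives, 16 stayed within a factor of 1.5 of the value given and 10 did not. The strongest Abcc9/Kcnj8 site, which ranked 4 by −log10 q, ranked 7 by fold and 23 by fragments, and the widest peak of its window ranked 696 by width. For Abcc8/Kcnj11 the rank of 672 became 1556 by fold, 368 by fragments and 22 by width, each for the peak that leads by that measure. At a −log10 q of 10 or more, 4 of the 7 Abcc8/Kcnj11 peaks were left, and the median fold at Abcc9/Kcnj8 went from 11.3 to 24.4 over the 2 peaks left there. Merging peaks less than 1 kb apart joined the strong site with its neighbour and gave a median of 21.6. At a stitching distance of 5 kb, 3 Abcc8/Kcnj11 peaks had a neighbour in place of 5. With the replicates merged, none could be left out. No paired analysis was possible because the replicates were merged. The list stops at its q threshold, so a site with few fragments over a high control would be absent from it.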
